A study of Homo sapiens with 4 samples.

Results

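The metallothionein genes MT2A, MT1E, MT1F, MT1G, MT1M and MT1X, the metal-responsive transcription factor MTF1 and the zinc exporter SLC30A1 were examined in MDA-MB-231 cells, an established human line of triple-negative breast cancer. These 8 genes were taken by symbol from the 48162 genes of the deposited table, and each symbol was found. The cells received either the vehicle DMSO or MGH-CP1, an inhibitor of the palmitoylation of TEAD transcription factors, for 24 h, with 2 libraries in each group. The sample labels give the dose of MGH-CP1 as 10 µM, whereas the written methods give the same number in millimolar. No allele was changed in either group, and the medium of both groups was DMEM with 10% fetal bovine serum. All libraries came from 1 cell line, and no source states whether the 2 libraries of a group came from separate cultures, so the p-values measure only the spread between these libraries, which may be technical.

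Metallothioneins are small cysteine-rich proteins that bind zinc and copper and buffer the free zinc of the cell. Free zinc activates MTF1, which binds metal response elements in the promoters of metallothionein genes and of SLC30A1, whose product (ZnT1) moves zinc out across the plasma membrane. Transcripts of both target classes are therefore widely used as a readout of zinc in cells, and the metallothionein genes also respond to glucocorticoids and to oxidative stress.

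The vehicle libraries held 25455533 and 25508824 fragments on the listed genes and the MGH-CP1 libraries 17997221 and 17577930. Mitochondrially encoded genes took 0.418% to 0.447% of the fragments in the vehicle libraries and 1.53% to 1.57% in the MGH-CP1 libraries. The TEAD targets CYR61, CTGF and ANKRD1 were lower after MGH-CP1, with log2 fold changes of -0.75, -0.66 and -0.66 (adjusted p = 3.29e-05, 0.000102 and 5.88e-05, limma over all genes tested). The mesenchymal markers VIM (259 to 281 FPKM) and CD44 (198 to 221 FPKM) were high in every library. AXL, the third marker, had 274 and 293 FPKM in the vehicle libraries and 149 and 187 FPKM after MGH-CP1 (log2 fold change -0.76, adjusted p = 0.000425, limma). The hormone receptor genes ESR1 and PGR were at or below 0.0243 FPKM. Of the other genes on the list of luminal and receptor genes, ERBB2 reached 24.7 to 28.4 FPKM and GATA3 4.17 to 5.65 FPKM. Of the epithelial genes, KRT8 (291 to 341 FPKM), KRT18 (86.8 to 115 FPKM) and EPCAM (12.4 to 16.4 FPKM) were detected, and CDH1 lay between 0.289 and 0.638 FPKM. KRT18 and KRT8 were lower after MGH-CP1 (-0.35 and -0.18, adjusted p = 0.000926 and 0.0138, limma). The call of KRT8 did not hold in every alternative setting. EPCAM was not called (0.17, adjusted p = 0.167, limma). CDH1, too low to be tested, had 0.363 and 0.289 FPKM with vehicle and 0.638 and 0.572 FPKM with MGH-CP1. Both MGH-CP1 libraries thus lay above both vehicle libraries for CDH1. The part of these marker changes in the results that follow was not tested.

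The metal response element is the sequence that links these genes to MTF1, so the stretch of 250 bases before the start of each gene was searched for its core. The letters searched were TGCACNC and TGCGCNC on both strands, called here the A form and the G form. RefSeq promoters (GRCh38.p14) were matched for 4 of the 8 genes, namely MT2A, MT1X, MTF1 and SLC30A1. The sequences with a match are shown because they carry the number and the spacing of the cores, with each match in capitals, written 5′ to 3′ on the strand of the gene. MT2A lies on the plus strand at chr16:56608334-56608583, MT1X on the plus strand at chr16:56682220-56682469 and SLC30A1 on the minus strand at chr1:211579162-211579411.

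MT2A: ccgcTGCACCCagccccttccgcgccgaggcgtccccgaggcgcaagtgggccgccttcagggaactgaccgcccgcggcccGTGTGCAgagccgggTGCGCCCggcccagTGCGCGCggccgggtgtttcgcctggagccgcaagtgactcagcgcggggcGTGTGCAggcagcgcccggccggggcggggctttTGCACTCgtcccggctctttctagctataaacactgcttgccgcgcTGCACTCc

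MT1X: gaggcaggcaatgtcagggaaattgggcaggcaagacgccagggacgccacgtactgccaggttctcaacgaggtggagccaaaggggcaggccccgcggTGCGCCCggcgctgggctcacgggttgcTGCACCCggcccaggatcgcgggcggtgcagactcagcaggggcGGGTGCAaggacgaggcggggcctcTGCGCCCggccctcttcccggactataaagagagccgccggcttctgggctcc

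SLC30A1: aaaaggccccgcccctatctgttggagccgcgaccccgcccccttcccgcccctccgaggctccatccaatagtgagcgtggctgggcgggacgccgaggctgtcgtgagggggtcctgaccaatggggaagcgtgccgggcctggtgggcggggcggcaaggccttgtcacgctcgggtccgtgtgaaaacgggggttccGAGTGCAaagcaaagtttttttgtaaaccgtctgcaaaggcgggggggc

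The MT2A window held 7 matches, which began 246, 168, 153, 139, 88, 54 and 8 bases before the start. The MT1X window held 4, which began 150, 122, 78 and 53 bases before the start. The SLC30A1 window held 1, at 49 bases before the start, and the MTF1 window held 0. Of the 27305 RefSeq promoter windows of this length, 24.7% held at least 1 match, 100 windows (0.366%) held 4 or more, and 9 windows (0.0330%) held 7 or more. A match describes the letters of the window and is not evidence of binding in these cells. MT2A, which had the highest transcript level of the 8 genes, also had the highest number of matches among the 4 promoters searched. MT1X had 4 matches and was listed near the limit of detection. That level is uncertain, because MT1X overlaps another gene on the same strand.

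**Figure D1:**
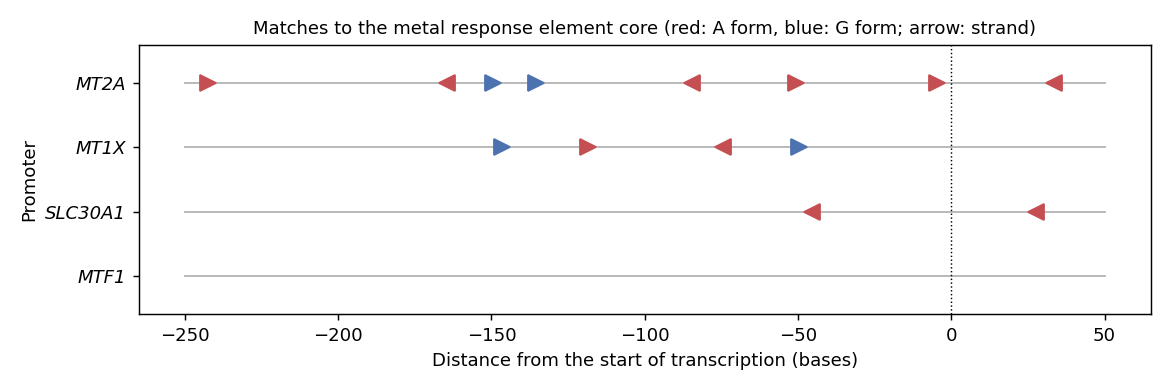
Positions of matches to the metal response element core in the promoters of 4 genes, by distance in bases from the start of the gene (horizontal axis, dotted line at the start), with one row per gene. Red arrows are the A form, TGCACNC, blue arrows the G form, TGCGCNC, and an arrow points along the strand of the match. MT2A shows 7 matches in the 250 bases before the start, MT1X 4, SLC30A1 1 and MTF1 0, and MT2A and SLC30A1 have 1 more each in the 50 bases after it.

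Levels are given as FPKM, the fragments of a gene divided by its listed length in kilobases and by the fragments on all listed genes. For each of the 8 genes the listed length was that of its longest GENCODE transcript. The shortest transcript of MT2A has 416 bases against 903 listed, that of MT1E 332 against 729, whereas SLC30A1 has 1 transcript of 5474. Which transcripts these cells make was not tested, so levels, ranks, ratios and shares across genes depend on the listed lengths. Comparisons of 1 gene between libraries use the same length. The groups were compared with limma on log2(FPKM + 1) for the 12080 genes with a mean of at least 1 FPKM over the 4 libraries, and a gene was called at a Benjamini-Hochberg adjusted p under 0.05 over all of them. Fold changes are MGH-CP1 over vehicle on that scale, which understates the change of genes with low levels. Of the 8 genes, 4 passed this filter, of which SLC30A1 was higher, MT2A and MT1E were lower and MTF1 was not called. These 3 calls among 4 tested genes (75.0%) stand beside 50.8% of all genes tested, of which 27.1% were higher and 23.8% lower. In the same 3 genes the groups did not overlap, as was the case for 77.2% of all genes tested (39.8% with both MGH-CP1 libraries higher and 37.4% with both lower). The median log2 fold change was -0.16 over the 4 genes and 0.01 over all genes tested. With so large a share of all genes called, the number of calls among these genes does not set them apart.

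The metallothionein transcripts came mostly from MT2A, whose product is the main metallothionein of most human cells. MT2A (ENSG00000125148, chr16:56642111-56643409 in hg19, plus strand) had 535 and 515 FPKM in the vehicle libraries and 445 and 434 FPKM in the MGH-CP1 libraries. Both MGH-CP1 libraries lay below both vehicle libraries. The means were 525 ± 14.5 FPKM (SD, n = 2) and 439 ± 7.29 FPKM (SD, n = 2), and by its mean over all libraries MT2A ranked 51 of the 48162 genes. MT2A fell by 0.26 on the log2 scale (SE 0.05, 95% interval -0.37 to -0.15, adjusted p = 0.0028, limma), and its mean FPKM fell by 16.3%. These values rest on 6893 to 12302 fragments per library. The fold change is small for a called gene, and 19.0% of all genes tested had a lower one. In bulk RNA, fewer cells that carry a transcript and less of it per cell cannot be told apart.

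MT1E, a member of the MT1 subfamily that lies downstream of MT2A in the same cluster, moved by about the same proportion. MT1E (ENSG00000169715, chr16:56659387-56661024 in hg19, plus strand) had 71.4 and 71.7 FPKM in the vehicle libraries and 60.6 and 57.7 FPKM in the MGH-CP1 libraries. Both MGH-CP1 libraries again lay below both vehicle libraries. The means were 71.5 ± 0.199 FPKM (SD, n = 2) and 59.2 ± 2.01 FPKM (SD, n = 2). MT1E fell by 0.27 on the log2 scale (SE 0.05, 95% interval -0.38 to -0.16, adjusted p = 0.00243, limma). It rests on 1325 and 1333 fragments with vehicle and on 795 and 740 with MGH-CP1. The ratio of MT2A to MT1E in FPKM was 7.50 and 7.18 with vehicle against 7.34 and 7.52 with MGH-CP1, so the ratio overlapped between the groups.

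When 1 library was left out, a group of 1 library was compared with a group of 2, and the lone library was assumed to vary like the others. In each of these fits MT2A and MT1E were called, with log2 fold changes from -0.28 to -0.23 for MT2A and from -0.30 to -0.24 for MT1E. They were lost when the variance was not shared between genes (adjusted p = 0.0767 and 0.0761, limma without shared variance), a setting that called 13 genes (0.108%) in all. With all libraries thinned to the same number of fragments the log2 fold changes were -0.26 and -0.25, and with median-ratio scaling between libraries -0.27 and -0.28.

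**Figure D2:**
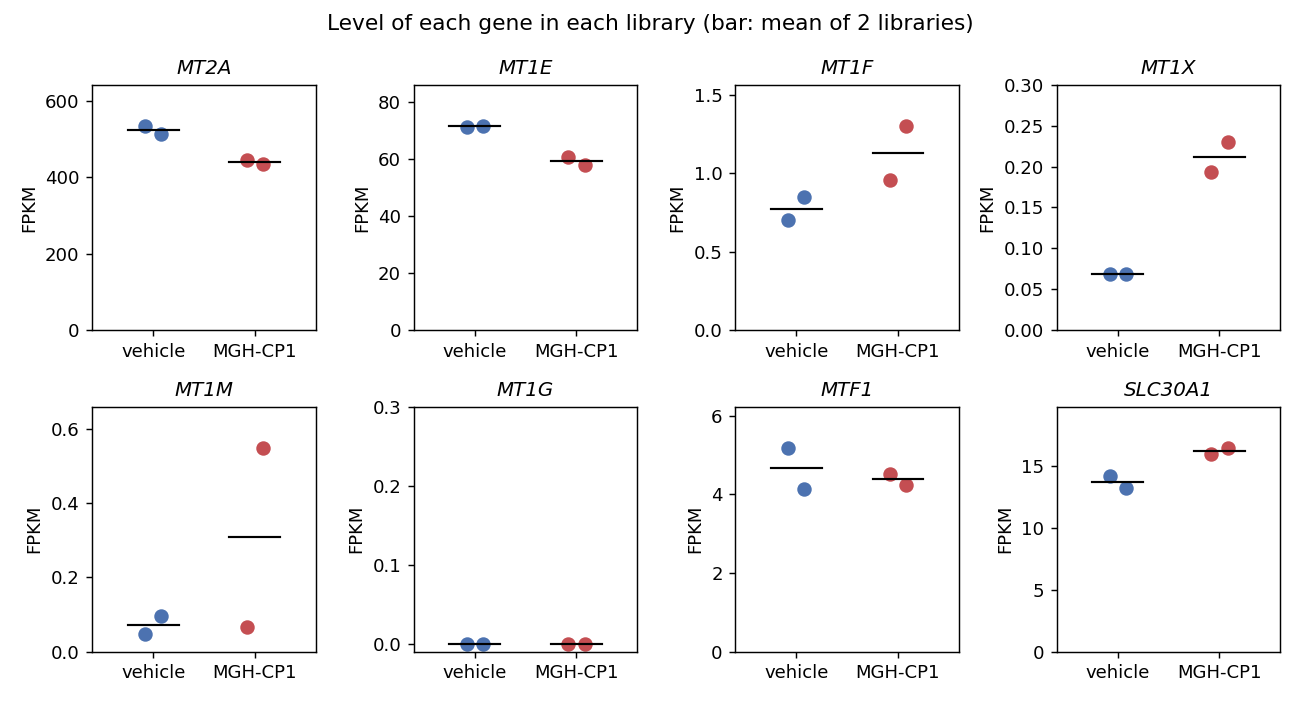
FPKM of the 8 genes in each library, with one panel per gene and its own vertical axis in FPKM. Points are libraries and horizontal bars are means of the 2 libraries of a group. MT2A and MT1E were lower in both MGH-CP1 libraries and SLC30A1 was higher in both, whereas MTF1 overlapped between the groups and MT1G was listed at 0 throughout.

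The other MT1 genes among the 8 were below the filter, and none of these 4 was tested in the comparison above. MT1F (ENSG00000198417, chr16:56691606-56694610 in hg19, plus strand) had 0.699 and 0.847 FPKM in the vehicle libraries and 0.954 and 1.30 FPKM in the MGH-CP1 libraries. The levels of the treated libraries exceeded both vehicle levels, opposite to the order of MT2A and MT1E. The mean over the 4 libraries was 0.951 FPKM, just under the filter. The fragments behind these values numbered 28, 34, 27 and 36, and the ratio of the groups per fragment sequenced was 1.46 (95% exact interval 1.01 to 2.10, which covers counting error only). When the filter was removed, the log2 fold change of MT1F was 0.26 (adjusted p = 0.276, limma), in a fit that called 16.6% of 24878 genes. In limma voom on genes with at least 40 fragments, a setting added after the data were seen, it was 0.53 (SE 0.34, adjusted p = 0.204), where 49.2% of 14443 genes were called. MT1F was called in neither fit.

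MT1X (ENSG00000187193, chr16:56716336-56718108 in hg19, plus strand) had 0.0682 and 0.0681 FPKM in the vehicle libraries and 0.193 and 0.231 FPKM in the MGH-CP1 libraries. These levels stand for 3 and 3 fragments against 6 and 7, with a ratio per fragment sequenced of 3.10 (95% exact interval 1.10 to 9.96). Both MGH-CP1 libraries were higher, and without the filter the gene was not called (log2 fold change 0.18, adjusted p = 0.0600, limma). MT1X overlaps RP11-343H19.2, which lies on the same strand and was listed at 0 in every library. By their coordinates the 2 genes share 1727 bases, which is most of the span of MT1X. Of the 100-base windows of the GENCODE transcripts of MT1X, 11.3% also occur in that gene. How the counting divided fragments between overlapping genes is not given in the sources used here, so the level of MT1X is uncertain.

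MT1M (ENSG00000205364, chr16:56666145-56667898 in hg19, plus strand) had 0.0474 and 0.0946 FPKM in the vehicle libraries and 0.0670 and 0.549 FPKM in the MGH-CP1 libraries, from 1, 2, 1 and 8 fragments. The groups overlapped, and the high value came from 1 of the 2 MGH-CP1 libraries. MT1M shares 6 bases with AC026461.1 on the opposite strand, which was listed at 0. MT1G (ENSG00000125144, chr16:56700643-56701977 in hg19, minus strand) had 0 fragments in all 4 libraries. A count of 0 allows up to 3 fragments, which would correspond to 0.187 to 0.272 FPKM for MT1G, so the gene could be present below that level.

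The metallothionein genes of chromosome 16 form a cluster of 119 kb (chr16:56598961-56718108 in hg19) that held 15 genes and pseudogenes in the table, of which 7 were above 0 in at least 1 library. MT2A and MT1E, the members with the highest levels, lie in the same cluster as MT1G, MT1H, MT1B, MT1CP, MT1JP, MT1L, MT3 and MT4, which were listed at 0 in all libraries. MT1A, a member of the MT1 subfamily outside the 8 genes, had 5.46 and 3.27 FPKM in the vehicle libraries and 2.67 and 3.30 FPKM in the MGH-CP1 libraries. The groups of MT1A overlapped, and it was not called (log2 fold change -0.40, SE 0.18, adjusted p = 0.0992, limma). Without vehicle replicate 2, which leaves 1 vehicle library whose spread is assumed from the other group, MT1A was called (-0.70, adjusted p = 0.00193, limma). Low counts were also seen for the pseudogenes MT1DP (0, 1, 1 and 2 fragments), MT1P1 (1, 1, 0 and 1) and MT1XP1 (3, 1, 0 and 0), whereas MT2P1, MT1P3 and MT1HL1 were at 0.

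**Figure D3:**
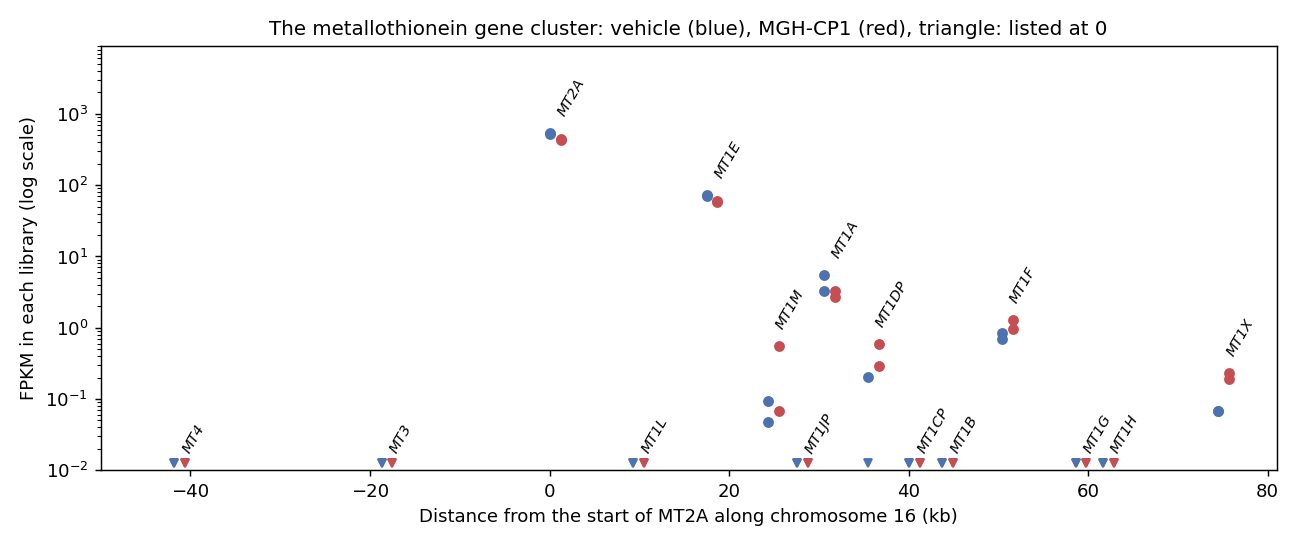
FPKM of the genes of the metallothionein cluster on a log axis, against the distance of each gene from the start of MT2A in kilobases. Each point is 1 library, in blue for vehicle and in red for MGH-CP1, and triangles at the lower edge mark libraries listed at 0. MT2A and MT1E stand above 50 FPKM in every library, and neighbours such as MT1G and MT1H are at 0.

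Summed over the 20 metallothionein genes and pseudogenes of the table, the level was 614 and 591 FPKM in the vehicle libraries and 509 and 498 FPKM in the MGH-CP1 libraries. The means were 602 ± 15.9 FPKM (SD, n = 2) and 504 ± 7.80 FPKM (SD, n = 2), a ratio of 0.836, with no overlap between the groups. MT2A made up 87.2% and 87.0% of this sum with vehicle and 87.3% and 87.1% with MGH-CP1, and MT1E made up 11.6% and 12.1%, then 11.9% and 11.6%. These shares depend on the listed lengths. As shares of fragments, where no length enters, MT2A made up 89.7% and 89.4% with vehicle and 89.5% and 89.4% with MGH-CP1. The listed composition of the pool was thus close in all 4 libraries while its total was lower after MGH-CP1. Both restate the values of MT2A and MT1E, which make up nearly all of the sum. MT1X entered the sum at its listed level, which is uncertain. MT1F took a share of 0.114% and 0.143% with vehicle against 0.187% and 0.261% with MGH-CP1, so its share did not overlap between the groups. The sum that divides this share was lower after MGH-CP1, and MT1F rests on 27 to 36 fragments per library. No 100-base window of the GENCODE transcripts of MT2A, MT1E, MT1F, MT1G or MT1M occurs in another gene, although reads that differ by a mismatch were not searched.

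MTF1, the zinc sensor and transcription factor, did not differ beyond the spread of its libraries. MTF1 (ENSG00000188786, chr1:38275239-38325292 in hg19, minus strand) had 5.19 and 4.13 FPKM in the vehicle libraries and 4.52 and 4.25 FPKM in the MGH-CP1 libraries. The groups overlapped, and the means were 4.66 ± 0.748 FPKM (SD, n = 2) and 4.38 ± 0.196 FPKM (SD, n = 2). The log2 fold change was -0.07 (SE 0.11, 95% interval -0.31 to 0.18, adjusted p = 0.627, limma), so a change within that interval could not be seen here. Without vehicle replicate 1, the library with the highest level, it was 0.069 (adjusted p = 0.675). MTF1 overlaps AL929472.1 on the same strand (1655 bases shared) and RP11-109P14.8 on the opposite strand (691 bases), both listed at 0. How the counting divided fragments between these genes is not given, so the level of MTF1 could be understated. The activity of MTF1 is regulated by zinc binding and its location in the cell, which transcript levels do not measure.

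SLC30A1, the zinc exporter of the plasma membrane, was higher after MGH-CP1, opposite in sign to MT2A and MT1E. SLC30A1 (ENSG00000170385, chr1:211744910-211752084 in hg19, minus strand) had 14.2 and 13.2 FPKM in the vehicle libraries and 15.9 and 16.5 FPKM in the MGH-CP1 libraries. Both MGH-CP1 libraries lay above both vehicle libraries, with means of 13.7 ± 0.710 FPKM (SD, n = 2) and 16.2 ± 0.394 FPKM (SD, n = 2). SLC30A1 rose by 0.23 on the log2 scale (SE 0.06, 95% interval 0.08 to 0.37, adjusted p = 0.0175, limma). It rests on 1978 and 1842 fragments in the vehicle libraries and, at their lower depth, on 1569 and 1586 in the treated ones. This fold change was higher than that of 72.7% of all genes tested. The call was lost without vehicle replicate 2 (0.18), without MGH-CP1 replicate 2 (0.20) and without the filter on low levels (adjusted p = 0.0656, limma). The calls of MT2A and MT1E held in these fits. Without the filter, MT2A was just under the threshold (adjusted p = 0.0491, limma), and MT1E had an adjusted p of 0.0253.

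Relative to MT2A, SLC30A1 stood at 0.0265 and 0.0256 in the vehicle libraries and at 0.0358 and 0.0380 in the MGH-CP1 libraries, as a ratio of FPKM. Relative to MTF1, it stood at 2.74 and 3.19 in the vehicle libraries and at 3.52 and 3.88 in the MGH-CP1 libraries. Both ratios were higher in each MGH-CP1 library than in each vehicle library. For the ratio to MT2A this restates the values above, since SLC30A1 was higher and MT2A lower without overlap. In order of mean FPKM, which depends on the listed lengths, MT2A came first, followed by MT1E, SLC30A1, MTF1, MT1F and then MT1M, MT1X and MT1G. Of these the last 3 were separated by only a few fragments. The mitochondrial share and the sequencing depth differed between the groups in the same libraries as MT2A, MT1E and SLC30A1. With all libraries thinned to the same number of fragments the log2 fold change of SLC30A1 was 0.24 (adjusted p = 0.0213, limma), and the part of the mitochondrial share in these results was not tested.

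**Figure D4:**
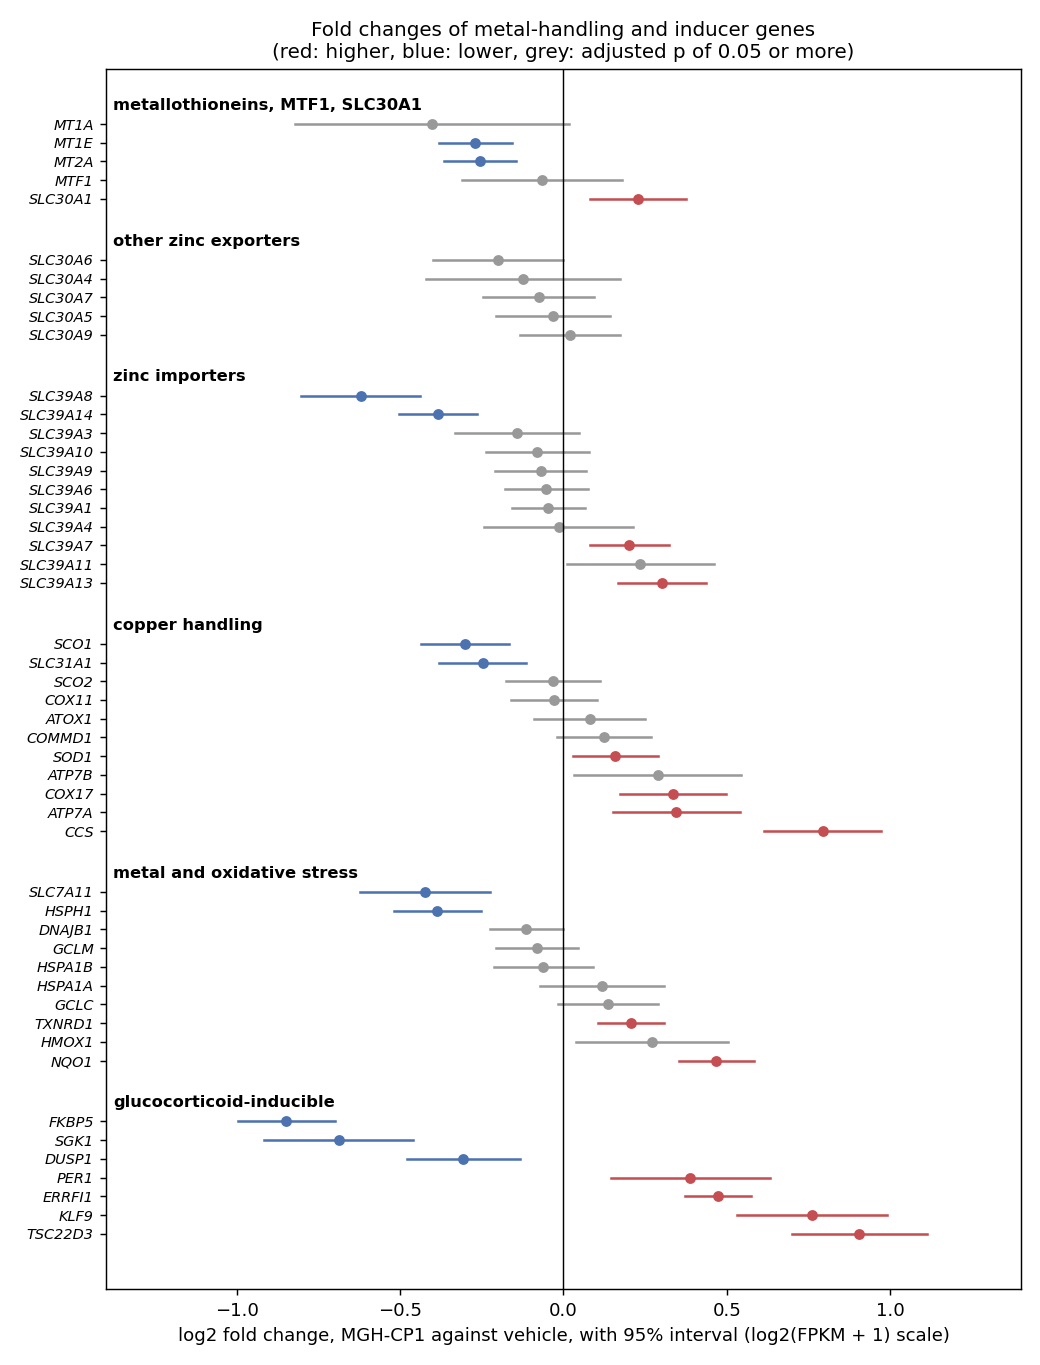
Log2 fold change, MGH-CP1 over vehicle on the scale of log2(FPKM + 1), for the tested metallothionein genes, MTF1, SLC30A1 and the tested genes of the zinc, copper, stress and glucocorticoid lists, with 95% intervals from limma. Red marks genes called higher, blue genes called lower and grey genes not called. MT2A and MT1E lie below 0, SLC30A1 lies above 0, and the intervals of MTF1 and MT1A include 0.

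The other transporters that shape zinc in the cell were taken from lists chosen by family. Of the 10 SLC30 zinc exporters, 6 were tested, and SLC30A1 was the 1 called gene (16.7% of those tested, beside 50.8% of all genes). SLC30A6 fell short of the threshold (log2 fold change -0.20, adjusted p = 0.0843, limma), and the other 4 tested lay between -0.12 and 0.02. SLC30A10, below the filter, had 14 and 6 fragments with vehicle and 19 and 20 with MGH-CP1. Its ratio per fragment sequenced was 2.79 (exact interval 1.59 to 5.06, which covers counting error only). Both MGH-CP1 libraries thus lay above both vehicle libraries for SLC30A10. Also below the filter, SLC30A3 overlapped between the groups, and SLC30A2 and SLC30A8 had at most 1 fragment in a library. Of the 14 SLC39 zinc importers, 11 were tested, of which 2 were higher and 2 lower (36.4% called, beside 50.8% of all genes tested). SLC39A8, which carries zinc and manganese into the cell, had 12.4 and 12.7 FPKM in the vehicle libraries and 7.26 and 8.38 FPKM in the MGH-CP1 libraries (log2 fold change -0.62, SE 0.08, adjusted p = 0.000432, limma). SLC39A14, a related importer of zinc, iron and manganese, had 29.0 and 29.0 FPKM with vehicle and 21.9 and 22.1 FPKM with MGH-CP1 (-0.38, adjusted p = 0.000574). SLC39A13 and SLC39A7, which release zinc from compartments of the secretory pathway, were higher (0.30 and 0.20, adjusted p = 0.00332 and 0.0129). The other 7 tested importers were not called, among them SLC39A1 (72.1 to 77.1 FPKM, log2 fold change -0.05), SLC39A6 (-0.05) and SLC39A10 (-0.08).

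Copper is the other metal that metallothioneins bind in cells. Of the 12 copper handling genes, 11 were tested, with 4 higher and 2 lower, so that 54.5% were called, close to the 50.8% of all genes tested. CCS, the chaperone that delivers copper to superoxide dismutase, had 11.5 and 13.5 FPKM in the vehicle libraries and 22.8 and 21.9 FPKM in the MGH-CP1 libraries (log2 fold change 0.79, SE 0.08, adjusted p = 0.000133, limma). The exporter ATP7A (0.35, adjusted p = 0.0101) and the mitochondrial copper chaperone COX17 (0.33, adjusted p = 0.00509) also rose. Without the filter on low levels, neither ATP7A nor COX17 was called (adjusted p = 0.05003 and 0.0626, limma). SOD1, the enzyme that CCS loads, rose by 0.16 (adjusted p = 0.0456). The copper importer SLC31A1 (-0.25, adjusted p = 0.00803) and the mitochondrial copper protein SCO1 (-0.30, adjusted p = 0.00340) fell.

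Genes that respond to metal and oxidative stress did not share a direction. Of the 12 on the list, 10 were tested, with 2 higher and 2 lower (median log2 fold change 0.03). These 4 calls among 10 genes are a smaller share than the 50.8% of all genes tested. NQO1, a quinone reductase, had 60.9 and 60.4 FPKM in the vehicle libraries and 86.7 and 82.0 FPKM in the MGH-CP1 libraries (log2 fold change 0.47, adjusted p = 0.000189, limma), and the thioredoxin reductase TXNRD1 rose by 0.21 (adjusted p = 0.00534). The cystine transporter SLC7A11 (-0.42, adjusted p = 0.00431) and the heat shock protein gene HSPH1 (-0.39, adjusted p = 0.000977) fell. Without the filter on low levels, SLC7A11 was not called (adjusted p = 0.0582, limma). HMOX1, a heme oxygenase that metals induce, did not pass the threshold (0.27, adjusted p = 0.0532).

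Glucocorticoid-inducible genes, a class to which MT2A also belongs, moved in both directions. Of the 8 on the list, 7 were tested and all 7 were called, with 4 higher and 3 lower, beside 50.8% of all genes tested called, 27.1% higher and 23.8% lower. TSC22D3 (log2 fold change 0.91, adjusted p = 0.000137, limma), KLF9 (0.76, adjusted p = 0.000504), ERRFI1 (0.47, adjusted p = 0.000109) and PER1 (0.39, adjusted p = 0.0162) rose. FKBP5, which had 17.2 and 17.6 FPKM in the vehicle libraries and 8.88 and 9.56 FPKM in the MGH-CP1 libraries, fell by 0.85 on the log2 scale (adjusted p = 4.75e-05), and SGK1 (-0.69, adjusted p = 0.000805) and DUSP1 (-0.31, adjusted p = 0.00988) also fell.

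The genes whose levels moved most like those of MT2A were found by the Euclidean distance of log2(FPKM + 1), centred on each gene's own mean, over the 4 libraries. RPL5, a ribosomal protein gene, was nearest to MT2A (distance 0.013), followed by DPYD (0.013) and ASH2L (0.014), among 878 genes within 0.1. Those nearest to SLC30A1 were AC007405.6 (0.015), TNFSF12 (0.020) and IDH3G (0.021), among 420 within 0.1, and those nearest to MTF1 were TCEAL1 (0.011), IDI1 (0.040) and RIPK2 (0.043), among 101. With 4 libraries, many genes share a pattern this simple, so these distances describe the table only.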

How the data were processed

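RNA of 4 MDA-MB-231 libraries (2 vehicle, 2 MGH-CP1) was analysed. The authors deposited FPKM for 48162 genes with coordinates and lengths. The submitters' processing notes name CASAVA 1.8, STAR and hg19; the counting tool, annotation, strand setting and treatment of multiply mapped reads are not given in the sources used here. Libraries were poly-T selected and sequenced as 150 bp paired-end reads. FPKM multiplied by length gave whole fragments for 100% of values (tolerance 0.01), so fragment numbers were recovered and used for counting intervals (exact, 95%), floors (3 fragments), limma voom and thinning.

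Genes with a mean of at least 1 FPKM were compared by limma 3.58.1 in R 4.3.3 on log2(FPKM + 1), using a variance trend; tests were two-sided, p-values were adjusted by Benjamini-Hochberg over 12080 genes, and the threshold was 0.05. An exact permutation test of 2 libraries against 2 cannot go below p = 0.333. The script was tested on simulated data. Named are the 8 genes, the other metallothioneins, the called genes of each list with the largest changes that do not overlap, further list members chosen after their values were seen, genes that overlap a member, the nearest patterns and 3 TEAD targets. The members and lists were chosen with earlier results of these data known. Transcript windows came from GENCODE 29 and promoters from RefSeq (GRCh38.p14). Alternatives were a pseudocount of 0.1, no filter, a mean of at least 5 FPKM, median-ratio and quantile scaling, the replicate number as a block, no trend, no shared variance, voom, thinning and leaving out each library.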

Additional observations from a re-analysis of the deposited data

How the results depend on the processing

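MT2A and MT1E kept their direction in all 15 alternatives and their call in 14; without shared variance they stood at -0.26 (adjusted p = 0.0767) and -0.27 (0.0761). SLC30A1 kept its direction in all 15 and its call in 11; it stood at 0.23 without the filter (adjusted p = 0.0656) and without shared variance (0.125), and at 0.18 to 0.28 when each library was left out in turn, so that the number of the 8 genes called higher was 0 to 1. A fit without 1 library assumes that the lone library of its group varies like the others. MTF1 was not called in any of its 14 alternatives and lay between -0.20 and 0.069 when each library was left out. It turned to 0.069 without vehicle replicate 1. The cause was not tested. Without the filter, 2280 genes were higher and 1844 lower (3273 and 2869 with it), 0 of the 8 genes were higher, and 7 of the genes on the zinc, copper, stress and glucocorticoid lists, SLC30A1 left out, were higher (12 with it). Without shared variance 9 genes were higher and 4 lower, with 0 and 0 among the 8 genes and 0 and 0 on the lists, and 4947 genes had an unadjusted p under 0.05. The replicate number as a block gave 6518 calls against 6142 and the same call for each of the 8 genes; deviations of same-numbered libraries correlated at 0.078 over 2 pairs, so the numbers are not taken to pair the libraries. The median log2 fold change of all genes stayed between -0.03 and 0.04. MT1F, MT1X, MT1M and MT1G had at most 36 fragments in a library.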
